A study of Mus musculus with 28 samples.

Results

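The genes described here are 7 genes of glucose output and fasting in mouse liver: G6pc, Pck1, Fbp1, Pcx, Lpin1, Cebpa and Cebpb. They were chosen by name, and all 7 were on the array, among 8251 genes with a single symbol. They had 8 probe sets, and Pcx had 4 further control probe sets that the array carries along its transcript. G6pc, which of these 7 differed most between untreated livers of the 2 genotypes, is described first and in most depth. The 7 genes were chosen with earlier results of these data known, so the p-values given for them are not independent of that choice.

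The series set mice that lack Aag (Aag null, called Aag here) beside wild-type mice (WT), with liver taken without treatment and 6, 12, 24 and 48 h after methyl methanesulfonate (MMS), an agent that methylates DNA. Aag, the product of the gene Mpg, is the glycosylase that removes methylated bases such as methyladenine from DNA. In the order untreated, 6, 12, 24 and 48 h, WT groups held 3, 2, 3, 2 and 2 arrays and Aag groups 4, 3, 2, 4 and 3, 28 arrays in all. The labels name the genotype only as null, and give no allele, strain, sex, age, dose of MMS, feeding state or hour of the day. Whether replicates came from different animals is not said in them, and p-values measure only the spread between these samples, which may be technical.

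The liver makes glucose from lactate, glycerol and amino acids, and releases it into the blood between meals. Pyruvate carboxylase (Pcx) and phosphoenolpyruvate carboxykinase (Pck1) carry out the entry steps of this pathway, fructose bisphosphatase (Fbp1) a later step, and the catalytic subunit of glucose-6-phosphatase (G6pc) the last step, which it shares with glycogen breakdown. Glucagon, through cAMP, and glucocorticoids raise transcription of G6pc and Pck1, and insulin lowers it. The transcription factors C/EBP alpha (Cebpa) and C/EBP beta (Cebpb) bind promoters of these genes, and lipin 1 (Lpin1), a phosphatidate phosphatase and coregulator, rises in liver on fasting.

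Values are log2 signals after quantile normalization. Differences are given on the log2 scale with the standard error (SE) of the limma fit over all 28 arrays, and a gene was called below an adjusted p of 0.05, with adjustment across 5487 tested genes. Levels of different genes are not compared, since each has its own probes. All 8 probe sets lay above the array median, 4.10, in all 28 arrays, so all 7 genes passed the brightness filter. The liver label was checked against markers: 8 of 10 hepatocyte markers were on the array, and all were bright, the dimmest, Apob, at the 97.5th percentile of genes by its mean and Alb at 12.10 to 12.62. Mpg was dim, from 2.54 to 2.83 in WT untreated and from 2.30 to 2.40 in Aag untreated liver, and no source used here says whether its probes lie in the deleted part.

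A technical division of the arrays touches every comparison with untreated liver. By the mean of 9 hybridization controls, transcripts added to each sample, 5 arrays formed a high set (10.25 to 11.65) and 23 a lower set (6.42 to 9.22). The high set held replicates 3 and 4 of untreated Aag and the 3 arrays of untreated WT, and no treated array. Gapdh controls at the 3′ end minus those at the 5′ end gave 0.63 to 0.92 in the high set, and -0.37 to 0.21 elsewhere. WT responses therefore have no value within a set. They are given also set-adjusted, that is, from a fit in which array set is a term, and only the 4 untreated Aag arrays inform that term. Aag responses are given also within the lower set. The female-typical Cyp2b9 exceeded the male-typical Hsd3b5 in 3 arrays, which were replicate 3 of untreated Aag liver and replicates 1 and 2 of Aag liver at 24 h.

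To show the regulatory sequence behind the genes that the results turn on, the 250 bases before the start of G6pc, Pck1 and Lpin1 are printed here. They are from RefSeq promoters (build GRCm38.p6), read 5′ to 3′ along the gene. In WT liver Pck1 was called higher at 12 h alone and Lpin1 at 12 and 24 h alone. Each of these calls ended when certain single arrays were left out. Capitals mark matches on either strand to any of 9 short motifs.
G6pc (chr11:101367466-101367715, plus strand): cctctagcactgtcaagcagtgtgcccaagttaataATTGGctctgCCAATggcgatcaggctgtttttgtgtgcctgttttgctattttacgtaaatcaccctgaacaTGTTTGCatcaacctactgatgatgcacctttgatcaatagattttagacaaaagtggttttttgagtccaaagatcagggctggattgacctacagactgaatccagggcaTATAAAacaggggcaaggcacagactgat
Pck1 (chr2:173152823-173153072, plus strand): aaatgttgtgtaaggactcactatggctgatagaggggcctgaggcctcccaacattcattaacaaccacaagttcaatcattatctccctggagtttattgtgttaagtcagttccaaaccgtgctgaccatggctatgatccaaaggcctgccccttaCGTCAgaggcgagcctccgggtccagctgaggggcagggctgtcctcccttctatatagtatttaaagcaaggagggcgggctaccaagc
Lpin1 (chr12:16610967-16611216, minus strand): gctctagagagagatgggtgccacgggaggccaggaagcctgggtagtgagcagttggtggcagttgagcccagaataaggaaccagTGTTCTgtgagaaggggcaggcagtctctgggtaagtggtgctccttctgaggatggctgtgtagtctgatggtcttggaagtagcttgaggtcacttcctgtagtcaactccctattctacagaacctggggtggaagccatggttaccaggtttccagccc
In G6pc, the capitals mark a TATA box (TATAAA) 29 to 24 bases before the start, the forkhead core with a free base (TGTTTNC) at 141 to 135, and CCAAT on the sense strand at 204 to 200 and on the other strand at 214 to 210. In Pck1 they mark the core of the cAMP response element (TGACG), on the other strand, at 90 to 86. In Lpin1 they mark AGAACA, part of a glucocorticoid receptor element, on the other strand at 163 to 158. Of 32851 RefSeq promoters of the same length, 12.4% held TATAAA, 17.8% TGTTTNC, 33.8% CCAAT, 17.8% TGACG and 16.1% AGAACA. The strict forkhead core TGTTTAC, held by 3.17% and contained in TGTTTNC, was in none of the 8 promoters of the 7 genes. Likewise absent were the full element TGACGTCA (1.55%), which contains TGACG, and the C/EBP core TTGCNNAA (9.56%). The E-box CACGTG (6.02%) was in 1 of the 2 Pcx promoters, at 248 to 243, and the same promoter held CCAAT 3 times, at 21 to 17, 51 to 47 and 180 to 176. Cebpb held TGACG 3 times, at 7 to 3, 53 to 49 and 180 to 176, Cebpa held TATAAA at 30 to 25, and Fbp1 held CCAAT at 124 to 120. These matches describe letters, not bound sites.

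G6pc was far higher in untreated WT liver than in untreated Aag liver, and lower in WT liver at every time after MMS. Its signal in WT untreated arrays was 9.40, 9.95 and 10.28. In Aag untreated arrays it was 7.87, 7.82, 8.06 and 8.07. The groups did not overlap: every WT untreated array lay above every Aag untreated array, and the Aag arrays of both array sets lay close together.

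After MMS, G6pc in WT liver was 7.69 and 8.92 at 6 h, 7.80, 8.73 and 8.26 at 12 h, 8.25 and 7.88 at 24 h, and 7.65 and 8.09 at 48 h. Each treated WT array was below the lowest WT untreated array. In Aag liver it was 7.55, 7.52 and 8.76 at 6 h, 8.77 and 9.59 at 12 h, 7.58, 7.30, 6.99 and 8.20 at 24 h, and 7.69, 8.97 and 8.25 at 48 h. Both Aag 12 h arrays lay above all Aag untreated arrays, and Aag 12 h replicate 2 was the only array outside WT untreated above 9.40.

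Group means of G6pc ran, in falling order, from WT untreated (9.88 ± 0.45, SD, n = 3) through Aag 12 h (9.18 ± 0.58, n = 2), WT 6 h (8.30 ± 0.87, n = 2), Aag 48 h (8.30 ± 0.64, n = 3), WT 12 h (8.26 ± 0.46, n = 3), WT 24 h (8.07 ± 0.26, n = 2), Aag untreated (7.96 ± 0.13, n = 4), Aag 6 h (7.94 ± 0.71, n = 3) and WT 48 h (7.87 ± 0.31, n = 2) to Aag 24 h (7.51 ± 0.51, n = 4). Each group overlapped the next in this order, so no step between neighbours exceeded the spread of their arrays. The smallest SD was in Aag untreated liver, although it held arrays of both sets and a female-typical array.

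**Figure D1:**
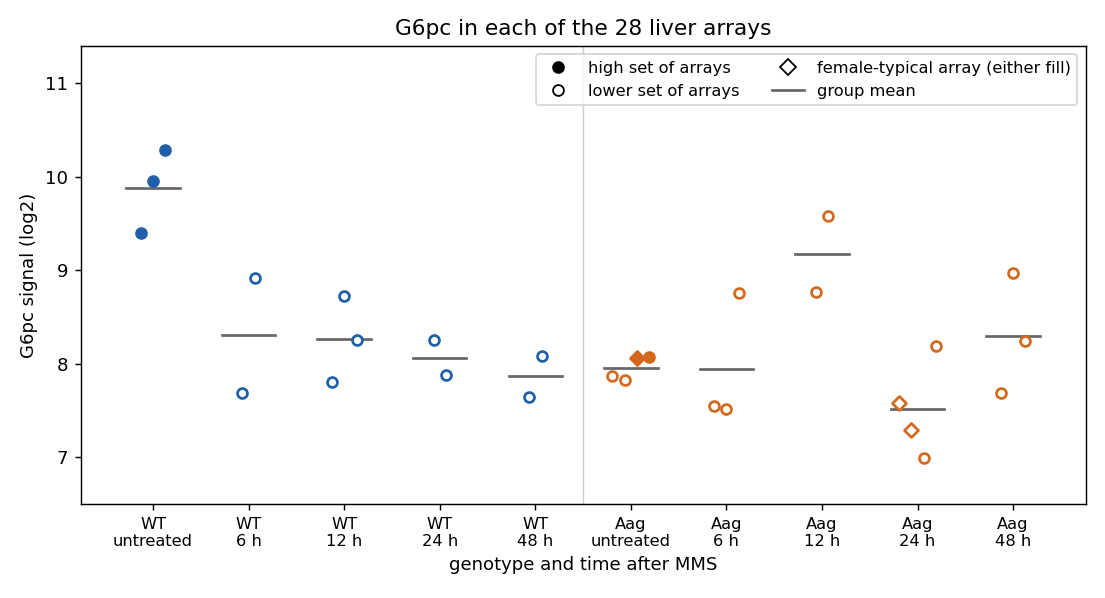
G6pc signal (log2, vertical axis) in each array, by genotype and time after MMS; filled points are the high set of arrays, open points the lower set, diamonds the female-typical arrays, and bars the group means. The 3 WT untreated arrays stand at 9.40 to 10.28, and the 4 Aag untreated arrays at 7.82 to 8.07.

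The comparison of untreated livers asked whether the genotypes differed before MMS. G6pc was 3.79-fold lower in Aag than in WT untreated liver (log2 -1.92, SE 0.36, adjusted p = 0.00378, limma). It was the only one of the 7 genes called, where 4.50% of all genes tested were called in either direction. The set-adjusted difference was -1.81 (SE 0.43, adjusted p = 0.0256), where 3.10% of genes were called. Among arrays of the high set alone, 3 WT and 2 Aag, it was -1.81 (SE 0.24, adjusted p = 0.0169), where 0.510% of genes were called. Leaving out the female-typical Aag array there left a difference of the same size, -1.81 (SE 0.30, adjusted p = 0.101), no longer called. Leaving out any single array kept the call, with differences from -2.16 to -1.72. It was not called with array weights (-1.85, adjusted p = 0.170) or with both array set and female-typical pattern in the fit (-1.76, adjusted p = 0.0750).

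Markers of other cells were also set beside the untreated comparison. The mean of 10 Kupffer cell and macrophage markers was 4.77 to 5.19 in WT untreated and 5.20 to 5.66 in Aag untreated arrays, and that of 5 erythroid markers 6.01 to 6.09 and 5.33 to 5.90. The mean of the 8 hepatocyte markers was 10.41 to 10.45 in WT and 10.30 to 10.35 in Aag. Of the tested markers, 0 of 9 Kupffer cell, 1 of 5 erythroid (lower) and 1 of 8 hepatocyte markers (higher) were called in Aag against WT. Their part in the G6pc difference was not tested. In whole tissue, fewer cells of a type and less RNA per cell cannot be told apart.

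The other 6 genes were not called between untreated livers. Pcx was -0.59 (SE 0.20, adjusted p = 0.0952) and Cebpb -0.62 (SE 0.37, adjusted p = 0.386), and set-adjusted values were -0.14 and 0.23. Lpin1 was 0.54 (SE 0.57), Pck1 0.32 (SE 0.22), Cebpa 0.31 (SE 0.15) and Fbp1 -0.05 (SE 0.09). Pcx was called lower in Aag without Aag untreated replicate 3 (-0.76, adjusted p = 0.0283), an array of the high set. The median of the 7 genes was -0.05 and that of all genes 0.02.

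In WT liver the comparisons with untreated liver asked how MMS changed these genes over time. G6pc was lower at all 4 times. At 6 and 12 h the differences were -1.58 (SE 0.43, adjusted p = 0.0151) and -1.62 (SE 0.38, adjusted p = 0.00464). At 24 and 48 h they were -1.81 (SE 0.43, adjusted p = 0.00696) and -2.01 (SE 0.43, adjusted p = 0.00299). In time order these are 2.98-fold, 3.07-fold, 3.51-fold and 4.03-fold. Set-adjusted values were -1.36, -1.40, -1.60 and -1.79, none of them called (adjusted p = 0.315, 0.267, 0.198 and 0.132). The difference at 6 h was -0.96 (adjusted p = 0.162) without WT 6 h replicate 1, and that at 24 h was -1.63 (adjusted p = 0.1003) without WT 24 h replicate 2. The calls at 12 and 48 h held without any single array.

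Counted over the 7 genes, 0 were higher and 2 lower in WT at 6 h, where 16.3% of all genes were called. At 12 h 2 were higher and 1 lower, with 21.0% of all genes called. At 24 h 2 were higher and 1 lower, with 13.8% called, and at 48 h 0 were higher and 2 lower, with 14.4% called. After set adjustment 0, 2, 1 and 0 of the 7 were called at the 4 times, all higher, against 2.08%, 3.03%, 3.50% and 3.54% of all genes. The medians of the 7 genes were -0.09, -0.02, -0.05 and -0.28, where those of all genes were 0.02, 0.04, 0.04 and 0.03. Of 9 tested Kupffer cell markers 1, 3, 0 and 0, and of 5 tested stellate cell markers 2, 3, 3 and 3, were also lower at these times, while 1 Kupffer cell marker at 6 h and 1 stellate cell marker at 12 h were higher. After set adjustment none of them was called. Their part in these results was not tested.

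Pck1, the carboxykinase, did not fall with G6pc in WT liver. Its signal was 7.24, 7.41 and 7.77 in WT untreated arrays. It was 7.87 and 7.62 at 6 h, 8.26, 8.48 and 7.82 at 12 h, 8.002 and 7.74 at 24 h, and 7.16 and 8.16 at 48 h. The 12 h arrays all lay above the untreated arrays, and the other times overlapped them. The rise at 12 h was 0.71 (SE 0.24, adjusted p = 0.0361), and the set-adjusted rise was 1.28 (SE 0.35, adjusted p = 0.0436). It was not called without WT untreated replicate 1 (0.59, adjusted p = 0.138) or 2 (0.68, adjusted p = 0.0878), or without WT 12 h replicate 1 (0.67, adjusted p = 0.103) or 2 (0.56, adjusted p = 0.160). In Aag liver Pck1 was 7.75, 7.27, 8.20 and 7.97 untreated and 8.20 and 8.18 at 12 h, which overlapped.

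Lpin1 had the widest span of the 7 genes, 3.55, against 3.29 for G6pc. It was 4.95, 4.87 and 6.82 in WT untreated arrays. It was 6.83 and 6.40 at 6 h, 7.60, 7.34 and 6.92 at 12 h, 8.42 and 7.95 at 24 h, and 7.0005 and 6.20 at 48 h. WT untreated replicate 3 lay well above the other untreated arrays, and the 12 and 24 h arrays lay above it.

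The rise of Lpin1 was 3.34-fold at 12 h (log2 1.74, SE 0.61, adjusted p = 0.0457) and 6.22-fold at 24 h (2.64, SE 0.68, adjusted p = 0.0130). Set-adjusted rises were 3.35 (adjusted p = 0.0380) and 4.25 (adjusted p = 0.0106). The call at 12 h held without WT untreated replicate 3 and ended without any of the other 5 arrays (adjusted p = 0.0682 to 0.167). The call at 24 h ended without WT untreated replicate 2 (adjusted p = 0.0529), WT 24 h replicate 1 (0.125) or WT 24 h replicate 2 (0.0694). At 6 and 48 h the differences were 1.07 (SE 0.68) and 1.06 (SE 0.68), neither called.

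In Aag liver Lpin1 was 5.46 and 5.10 in the untreated arrays of the lower set, and 7.20 and 6.59 in those of the high set. It was 7.19, 5.51 and 6.41 at 6 h, 7.02 and 7.55 at 12 h, 7.14, 5.56, 7.02 and 7.93 at 24 h, and 5.30, 7.26 and 6.14 at 48 h. All treated Aag groups overlapped the untreated arrays. The largest Aag difference was 1.19 (SE 0.65, adjusted p = 0.514) at 12 h, and 2.00 (SE 0.65, adjusted p = 0.236) within the lower set.

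Pcx, the carboxylase, was lower in WT liver after MMS, but its untreated level moved with the array set. With the probe set used, it was 7.42, 7.25 and 7.51 in WT untreated arrays and 6.03, 6.69, 7.32 and 7.18 in Aag untreated arrays. The 5 arrays of the high set held the 5 highest values of the series, 7.18 to 7.51, and the lower set ran from 5.79 to 6.98. In treated WT arrays Pcx was 6.41 and 6.55 at 6 h, 6.85, 6.98 and 6.79 at 12 h, 6.81 and 6.82 at 24 h, and 6.16 and 6.08 at 48 h.

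Pcx was called lower in WT at 6 h (-0.91, SE 0.24, adjusted p = 0.0131) and 48 h (-1.27, SE 0.24, adjusted p = 0.00114). Set-adjusted differences were -0.02 (adjusted p = 0.974) and -0.38 (adjusted p = 0.413). In Aag liver Pcx was 6.41, 5.79 and 6.11 at 48 h, a difference of -0.70 (SE 0.20, adjusted p = 0.0857), and -0.26 within the lower set. At 6 h in Aag Pcx was -0.33 over all arrays (adjusted p = 0.487), and 0.11 within the lower set (adjusted p = 0.858). It was called in Aag at 6 h (-0.59, adjusted p = 0.0424) and 48 h (-0.96, adjusted p = 0.00123) only without Aag untreated replicate 1, an array of the lower set.

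The other probe sets of Pcx did not all move the same way. The second probe set, from 4.99 to 5.56 over all arrays, was -0.34 at 6 h (adjusted p = 0.0419) and -0.39 at 48 h (adjusted p = 0.0212) in WT, fitted with every probe set as a row. Among the control probe sets placed along the transcript, the 5′ set was higher in treated WT liver, by 2.23, 2.05, 1.60 and 1.90 at the 4 times (adjusted p = 0.000706, 0.000265, 0.00743 and 0.00196). The 3′ set was -0.22, 0.09, -0.07 and -0.71, of which only 48 h was called (adjusted p = 0.0147). After set adjustment, none of the 4 control probe sets was called at any of these times.

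The 3′ minus 5′ difference of these Pcx controls was 2.42 to 3.84 in the high set (median 3.08) and 0.78 to 2.24 in the lower set (median 1.23), without overlap. The direction of the Pcx difference in WT liver thus depended on which part of the transcript was read. The part of the array set in the Pcx result cannot be told apart from MMS in WT liver.

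**Figure D2:**
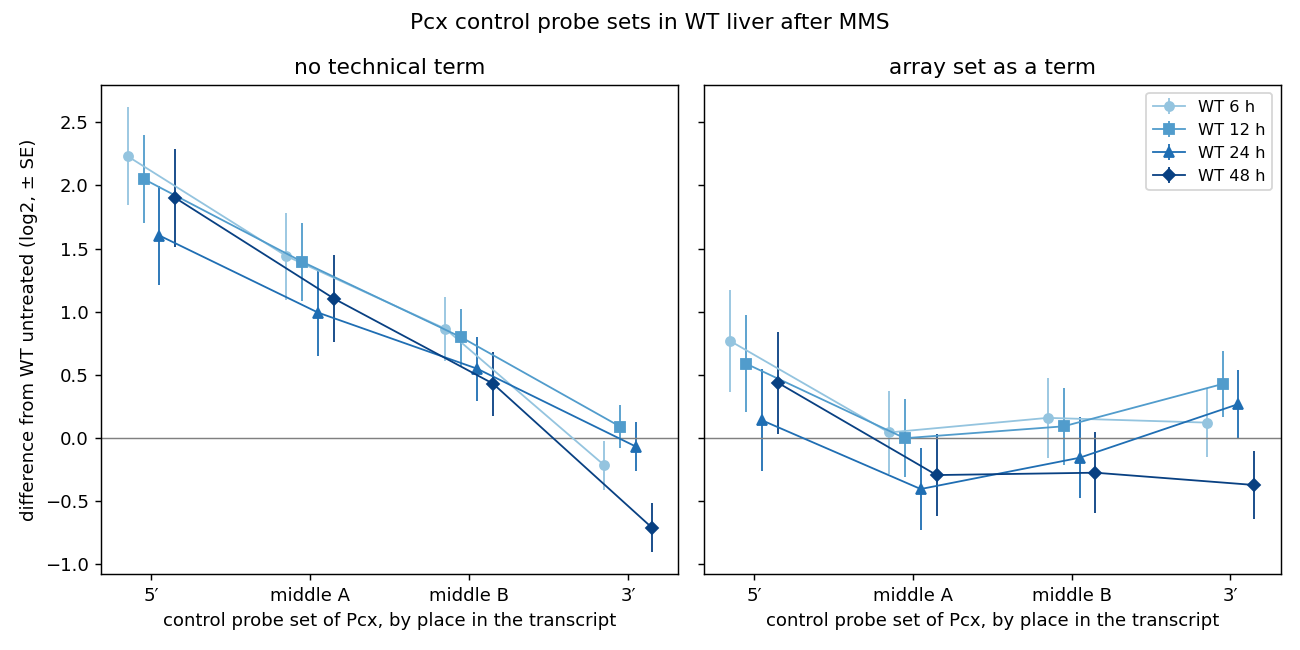
Difference from WT untreated liver (log2, bars are SE) of the 4 Pcx control probe sets, placed from 5′ to 3′ along the transcript, at each time after MMS. Without a technical term (left) the 5′ set is higher by 1.60 to 2.23 and the 3′ set runs from -0.71 to 0.09; set-adjusted (right), the 5′ set lies at 0.14 to 0.77.

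Fbp1, the bisphosphatase, varied least, with a span of 0.45 over all arrays, from 9.71 to 10.16. It was not called in any of the 23 comparisons. Its largest WT differences were -0.28 at 24 h (SE 0.11, adjusted p = 0.0880) and -0.28 at 48 h (SE 0.11, adjusted p = 0.0888), and both were -0.04 after set adjustment.

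Cebpa, a factor of differentiated hepatocytes, was 8.72, 8.65 and 9.09 in WT untreated arrays and 9.14 to 9.56 in treated WT arrays, above all of them. It was called at 24 h (0.58, SE 0.18, adjusted p = 0.0380), where its arrays were 9.24 and 9.56, with a set-adjusted value of 0.20 (adjusted p = 0.716). The call at 24 h ended without WT untreated replicate 1 (0.53, adjusted p = 0.102) or 2 (0.49, adjusted p = 0.119), and without WT 24 h replicate 1 (0.74, adjusted p = 0.0735) or 2 (0.42, adjusted p = 0.358). Without WT untreated replicate 3 Cebpa was called also at 12 h (0.58, adjusted p = 0.0219) and 48 h (0.62, adjusted p = 0.0317). Aag untreated arrays ran from 8.81 to 9.49 and treated Aag arrays from 9.01 to 9.77. By array set, Cebpa ran from 8.65 to 9.09 in the high set and from 9.01 to 9.77 in the lower set. Every treated array is of the lower set.

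Cebpb, a factor induced by cAMP and by inflammation, was split by array set among untreated Aag arrays. Replicates 1 and 2, from the lower set, were at 4.68 and 4.96, and both arrays from the high set at 6.52. WT untreated arrays were 6.52, 5.65 and 6.69. Treated Aag arrays were 5.61, 6.14 and 6.07 at 6 h, 6.33 and 6.52 at 12 h, 6.13, 5.92, 6.22 and 6.38 at 24 h, and 4.33, 4.78 and 4.83 at 48 h. Among treated Aag arrays, the 48 h arrays lay below all others.

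Cebpb was not called in any response over all arrays. Its differences in WT were -0.85, -0.58, -0.05 and -1.07, and set-adjusted 0.85, 1.12, 1.65 and 0.63, so that the direction in WT turned with this adjustment. Within the lower set, against 2 untreated arrays, Cebpb was 1.60 higher in Aag at 12 h (SE 0.32, adjusted p = 0.0379) and 1.34 higher at 24 h (SE 0.28, adjusted p = 0.0218). It was the only one of the 7 genes called there at either time, against 0.401% and 1.20% of all genes. At 48 h Cebpb was 1.29 below its level at 6 h within the lower set (SE 0.26, adjusted p = 0.0330), where 0.565% of genes were called. Over all arrays the same difference had a larger SE of 0.40 and was not called (adjusted p = 0.189). Against untreated liver, Cebpb in Aag at 48 h was -1.02 over all arrays (adjusted p = 0.168), and -0.17 within the lower set (adjusted p = 0.984). Only without Aag untreated replicate 1, an array of the lower set, was it called lower at 48 h than untreated (-1.35, adjusted p = 0.0231).

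**Figure D3:**
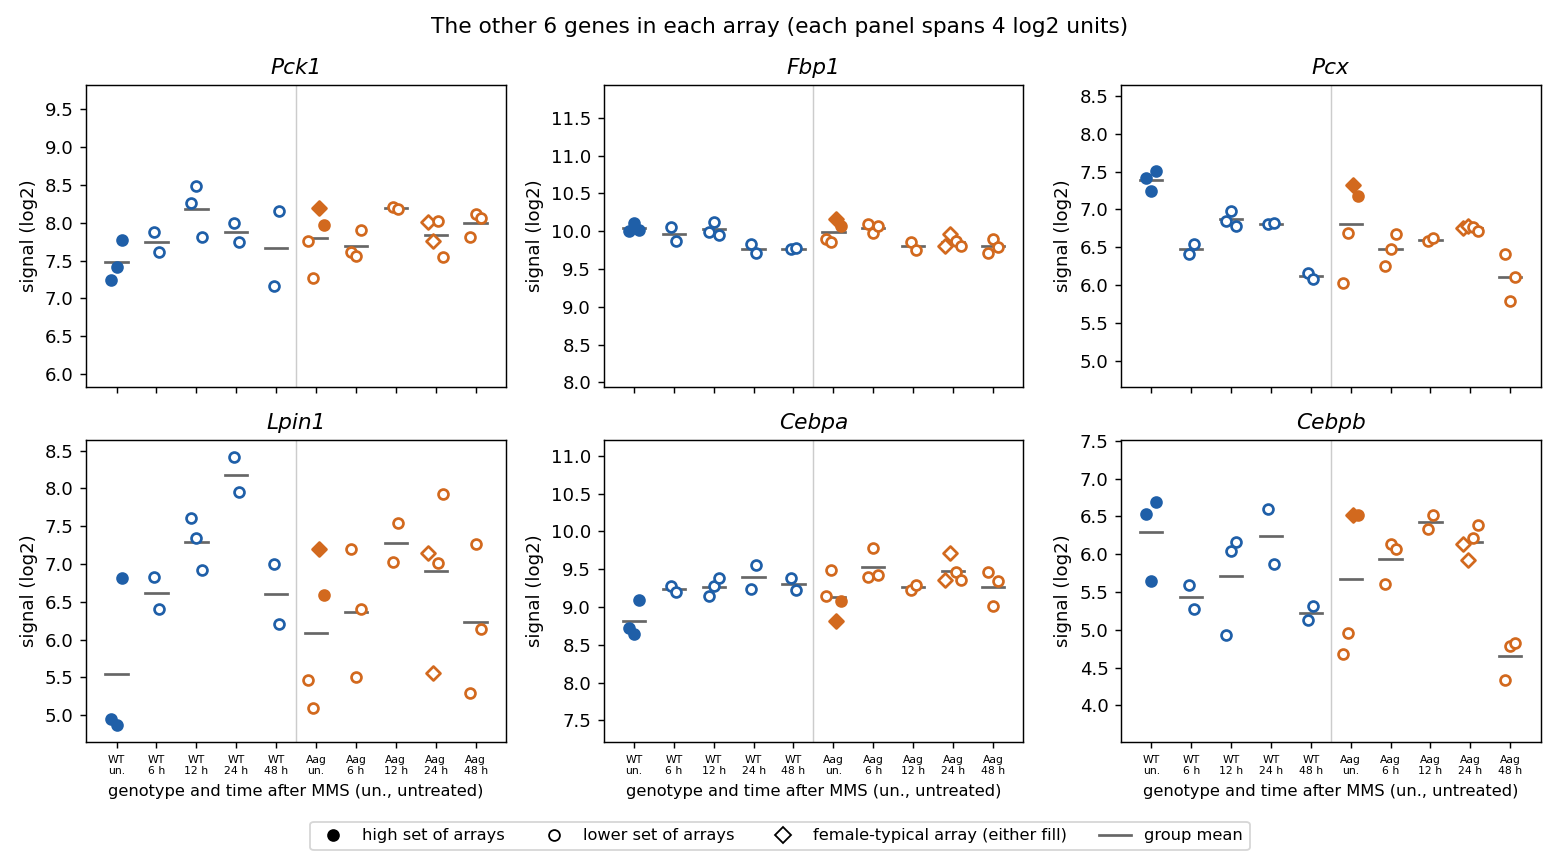
Signal (log2, vertical axis, 4 units in each panel) of the other 6 genes in each array, by genotype and time after MMS, with symbols for array set and female-typical arrays and bars for group means. Lpin1 is highest in WT 24 h arrays (7.95 and 8.42), Fbp1 stays between 9.71 and 10.16, and the filled points of the high set are the highest in the Pcx panel.

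In Aag liver, 0 of the 7 genes were called against untreated liver at any time over all arrays (limma). An unadjusted p under 0.05 was held by 1 gene each at 6 h (Cebpa), 12 h (G6pc) and 24 h (Cebpa), and by 3 genes at 48 h (Fbp1, Pcx and Cebpb). Over all genes, 0.510%, 0.437%, 1.08% and 0.911% were called at these times. G6pc differed by -0.02 (SE 0.36), 1.22 (SE 0.40, adjusted p = 0.204), -0.44 (SE 0.33) and 0.34 (SE 0.36) at 6, 12, 24 and 48 h. Within the lower set these were 0.09, 1.33, -0.33 and 0.45, and G6pc was not called there. At 6 and 48 h within the lower set 0 of the 7 genes were called, with 1 (Cebpb) and 0 at an unadjusted p under 0.05, against 0.273% and 0.109% of all genes called.

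**Figure D4:**
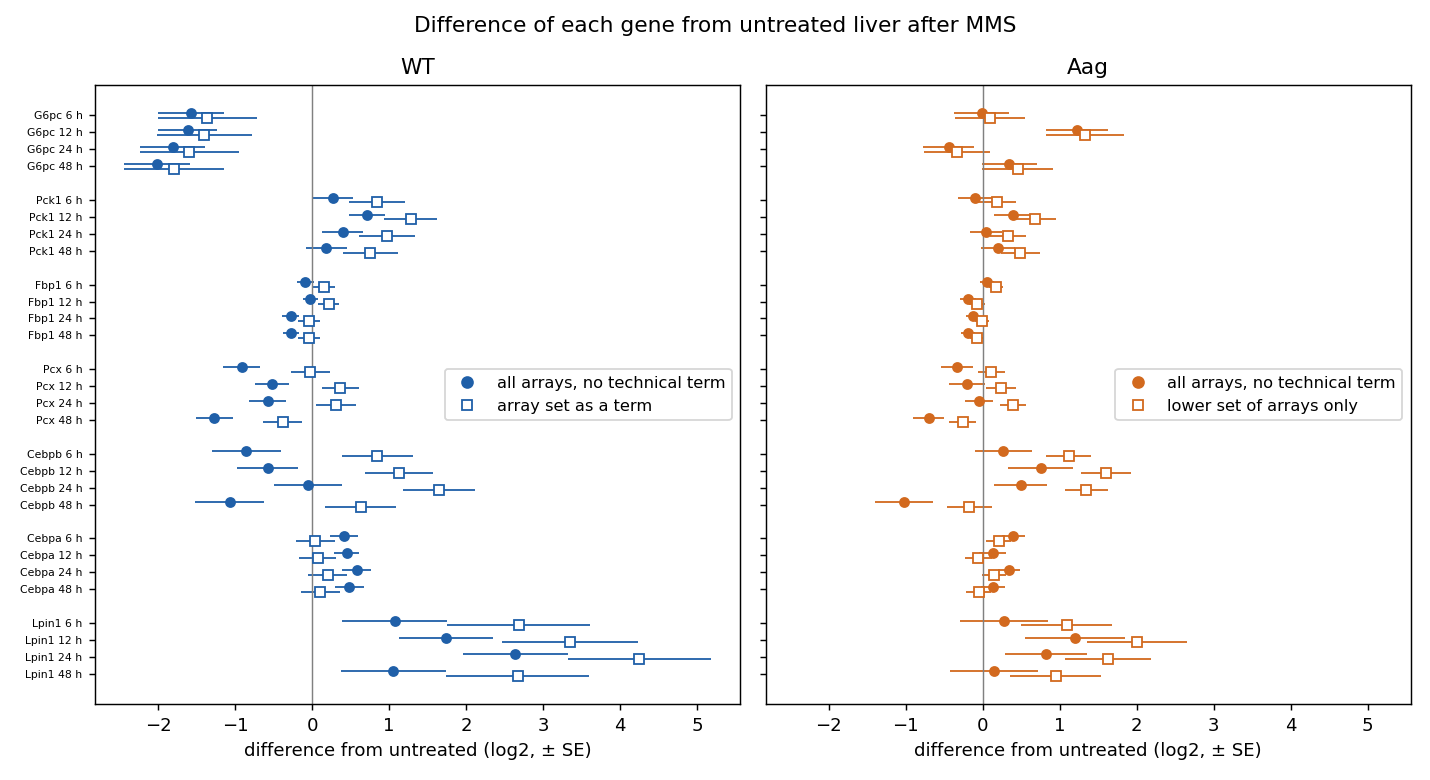
Difference from untreated liver of the same genotype (log2, horizontal axis, bars are SE) for each gene and time; filled circles use all arrays, open squares are set-adjusted (WT) or from the lower set alone (Aag). G6pc in WT lies at -1.58 to -2.01 over all arrays and at -1.36 to -1.79 set-adjusted, while Pcx and Cebpb in WT shift upward.

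The interaction asked whether the response to MMS differed between genotypes. For G6pc at 12 h, the Aag response exceeded the WT response by 2.84 (SE 0.56, adjusted p = 0.0351), and by 2.73 (SE 0.61, adjusted p = 0.0425) after set adjustment. G6pc was the only one of the 7 genes called, where 0.164% of all genes were called, and 0.510% after set adjustment. The size stayed between 2.43 and 3.24 when single arrays were left out, but the adjusted p rose above the threshold without 7 of 12 arrays. These were Aag untreated replicates 1 (0.0727) and 2 (0.0605), WT 12 h replicates 1 (0.162), 2 (0.0647) and 3 (0.0561), and Aag 12 h replicates 1 (0.105) and 2 (0.545).

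This interaction holds both the 12 h values and the untreated ones. At 12 h itself G6pc was 0.92 higher in Aag than in WT (SE 0.43, adjusted p = 0.999), with the nearest arrays at 8.77 and 8.73, and untreated it was -1.92. At 48 h the G6pc interaction was 2.35 (SE 0.56, adjusted p = 0.0841), and it was called without the brightness filter (adjusted p = 0.0471). At 6 and 24 h it was 1.56 (SE 0.56, adjusted p = 0.293) and 1.37 (SE 0.54, adjusted p = 0.362). At 6, 24 and 48 h 0 of the 7 genes were called, with 1, 2 and 1 at an unadjusted p under 0.05, where 0.237%, 0.0364% and 0.200% of all genes were called.

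Between genotypes at the same time after MMS, all arrays are of the lower set. None of the 7 genes was called at 6, 12, 24 or 48 h, where 0.182%, 0.0182%, 0% and 0% of all genes were called. The counts of the 7 at an unadjusted p under 0.05 were 0, 2 (G6pc and Fbp1), 0 and 0, and of all 5487 genes 268, 70, 68 and 194. G6pc differed by -0.36 at 6 h, -0.55 at 24 h and 0.43 at 48 h, with SE of 0.40 to 0.43. Lpin1 was -1.27 (SE 0.65) in Aag against WT at 24 h, and the nearest arrays were at 7.93 and 7.95.

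Against 6 h of the same genotype, which also compares only arrays of the lower set, none of the 7 genes was called at 12, 24 or 48 h over all arrays. In WT 0.109%, 0.492% and 0.747% of all genes were called, and in Aag 0.0182%, 0.146% and 0.200%. Of the 7 genes 0, 1 (Lpin1) and 0 in WT and 2 (G6pc and Fbp1), 0 and 2 (Fbp1 and Cebpb) in Aag had an unadjusted p under 0.05. G6pc in Aag was 1.24 higher at 12 h than at 6 h (SE 0.43, not called), and the nearest arrays were at 8.77 and 8.76.

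Other genes of glucose output and fasting were counted from 5 lists. Among 13 tested genes of the gluconeogenesis enzymes and carriers beyond the 7, 1, 3, 2 and 1 were higher and 1, 1, 1 and 0 lower in WT at 6, 12, 24 and 48 h, where 16.3%, 21.0%, 13.8% and 14.4% of all genes were called in either direction. The lactate dehydrogenase subunit Ldha was higher at 6 h (0.86, SE 0.19, adjusted p = 0.00451) and 12 h (0.99, SE 0.17, adjusted p = 0.000385), with set-adjusted values of 0.15 and 0.28, not called. Slc37a4, the carrier that brings glucose-6-phosphate to the G6pc enzyme, was higher at 24 h (0.62, SE 0.20, adjusted p = 0.0432), and by 1.22 (adjusted p = 0.00634) after set adjustment. Before set adjustment the Slc37a4 call ended without WT untreated replicate 1 or 2, or either WT 24 h array (adjusted p = 0.0816 to 0.223). Pck2, the mitochondrial carboxykinase, was lower at 6 h (-1.01, SE 0.35, adjusted p = 0.0480). This call was lost without any one WT untreated array or WT 6 h replicate 1 (adjusted p = 0.0598 to 0.336), and after set adjustment (adjusted p = 0.498). List medians were 0.06, 0.11, 0.08 and 0.12.

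Among 10 tested genes of glycogen metabolism, 1, 2, 2 and 1 were higher and 0, 1, 1 and 0 lower in WT, against the same 16.3%, 21.0%, 13.8% and 14.4% of all genes. The glycogen synthase kinase gene Gsk3a was higher at every time (0.61 to 0.68), and at 12 h its call held without any single array and after set adjustment (0.95, adjusted p = 0.0333). After set adjustment it was called also at 24 h (adjusted p = 0.0422) but not at 6 or 48 h. Its calls ended at 6 h without WT untreated replicate 2 or WT 6 h replicate 1, at 24 h without WT untreated replicate 2 or either WT 24 h array, and at 48 h without WT untreated replicate 1 or 2 or either WT 48 h array. Ppp1r3c, a glycogen-targeting subunit of protein phosphatase, was lower at 12 h (-0.58, SE 0.14, adjusted p = 0.00650), with an adjusted p of 0.0691 after set adjustment. It was also lower in Aag than in WT untreated liver (-0.54, adjusted p = 0.0218), but not without WT untreated replicate 2 (adjusted p = 0.0818). List medians in WT were 0.09, 0.16, 0.23 and 0.28. Among 9 tested genes of glycolysis and glucose uptake, 0, 0, 0 and 1 were higher and 1, 0, 0 and 0 lower, against those shares of all genes, with medians of -0.13, 0.05, 0.05 and 0.12. The lower gene was Srebf1, the lipogenic factor induced by insulin, at 6 h (-1.23, SE 0.26, adjusted p = 0.00335; adjusted p = 0.149 after set adjustment).

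Among 19 tested genes of hormone signalling and regulators of glucose output, 1, 1, 1 and 2 were higher and 2, 2, 1 and 3 lower in WT, where 16.3%, 21.0%, 13.8% and 14.4% of all genes were called. List medians were -0.18, 0.11, 0.10 and -0.07. The adrenergic receptor Adra1b was lower at all 4 times (-1.11, -0.82, -0.85 and -0.72), and after set adjustment it was called at 6 h (adjusted p = 0.0423) but not later. Its calls at 24 and 48 h ended without WT 24 h replicate 2 (adjusted p = 0.0533) and WT 48 h replicate 2 (0.0654). The glucagon receptor Gcgr was lower at 48 h (-0.64, SE 0.14, adjusted p = 0.00449), but not without WT 48 h replicate 2 (adjusted p = 0.0658) or after set adjustment (adjusted p = 0.118). The nuclear receptor Hnf4a was higher at 6 h (1.31, SE 0.29, adjusted p = 0.00366), 12 h (1.00, adjusted p = 0.00806), 24 h (0.85, adjusted p = 0.0494) and 48 h (1.16, adjusted p = 0.00854). Its set-adjusted values were 0.08, -0.23, -0.38 and -0.08, none of them called, so that its direction turned at 12, 24 and 48 h. The Hnf4a call at 24 h ended without any one of the 5 arrays compared (adjusted p = 0.0531 to 0.304), and that at 48 h without WT 48 h replicate 1 (0.0926). The glucocorticoid receptor gene Nr3c1 was too dim for the main test. Without the brightness filter it was 0.18, 0.10, 0.13 and 0.39 in WT, called at 48 h (adjusted p = 0.0257).

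Of 21 tested fasting-induced genes, 4, 4, 4 and 1 were higher and 1, 2, 1 and 2 lower in WT at 6, 12, 24 and 48 h, where 16.3%, 21.0%, 13.8% and 14.4% of all genes were called. After set adjustment 6, 8, 8 and 8 were higher and 0 lower, where 2.08%, 3.03%, 3.50% and 3.54% of all genes were called. Cpt1a, which takes fatty acids into mitochondria, was higher at all 4 times by 1.28 to 1.40, and set-adjusted by 1.89 to 2.01, called in both fits and without any single array. It was also 1.12 higher in Aag than in WT untreated liver (SE 0.20, adjusted p = 0.00378), and 1.43 higher set-adjusted (adjusted p = 0.000654), the opposite direction to G6pc. Fkbp5, a glucocorticoid-induced co-chaperone, was higher in WT at 6 h (0.65, SE 0.22, adjusted p = 0.0467), 12 h (1.09, SE 0.20, adjusted p = 0.000517) and 24 h (1.51, SE 0.22, adjusted p = 0.000141), and set-adjusted by 1.18, 1.61 and 2.04, all called. The Fkbp5 call at 6 h ended without WT untreated replicate 1 or 2 or either WT 6 h array (adjusted p = 0.0728 to 0.166). In Aag it was higher at 12 h (1.34, SE 0.21, adjusted p = 0.00446), but not without Aag 12 h replicate 1 (adjusted p = 0.107) or 2 (0.238). After set adjustment Fkbp5 was called in Aag also at 6 h (1.00, adjusted p = 0.0285) and 24 h (0.91, adjusted p = 0.0161). List medians in WT were 0.15, 0.14, 0.42 and 0.40.

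Igfbp1 and Pdk4, which also belong to the fasting-induced list, were not called higher in WT. Igfbp1, a growth factor binding protein made by the liver in fasting, was 5.35 to 5.92 in WT untreated arrays. It was lower at 12 h (-2.74, SE 0.74, adjusted p = 0.0115) and 48 h (-2.66, SE 0.83, adjusted p = 0.0341), with set-adjusted values of -0.10 and -0.03. At 6 and 24 h Igfbp1 was -1.95 and -1.37, and set-adjusted 0.69 and 1.26, none of them called. Its WT arrays at 6, 12 and 48 h, at 2.17 to 3.89, lay below the array median, 4.10. The Igfbp1 call at 12 h ended without WT 12 h replicate 1 (adjusted p = 0.0560), and that at 48 h without any one of its 5 arrays (adjusted p = 0.0523 to 0.259). Pdk4, which holds back pyruvate oxidation, was lower at every time in WT (-0.57, -0.47, -0.61 and -0.60), and at none after set adjustment (adjusted p = 0.368 to 0.621). Pdk4 lay near the array median, at 4.40 to 4.52 in WT untreated arrays and 3.50 to 4.25 at 6 h. Without WT untreated replicate 2 its calls ended at all 4 times (adjusted p = 0.0580 to 0.0912). They ended too, at 6 h, without WT untreated replicate 1 or WT 6 h replicate 1, at 12 h without any one of the 6 arrays compared, and at 24 and 48 h without either treated array (adjusted p = 0.0501 to 0.432).

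Tat, the glucocorticoid-induced tyrosine aminotransferase, was not called in WT. In Aag it was higher at 12 h (1.47, SE 0.27, adjusted p = 0.0236), 24 h (1.09, SE 0.22, adjusted p = 0.0223) and 48 h (1.05, SE 0.24, adjusted p = 0.0353). Within the lower set it was called at 12 h alone (adjusted p = 0.0383). Without the female-typical array Aag untreated replicate 3, the Tat calls at all 3 times ended (adjusted p = 0.0687, 0.0710 and 0.119). They ended too without either Aag 12 h array, Aag 24 h replicate 2 or 3, and, at 48 h, Aag untreated replicate 4 or Aag 48 h replicate 2 or 3.

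In Aag liver the same lists were counted, where 0.510%, 0.437%, 1.08% and 0.911% of all genes were called at 6, 12, 24 and 48 h. Of the fasting-induced genes 0, 2, 1 and 1 were higher and 0, 1, 0 and 0 lower at 6, 12, 24 and 48 h, and of the gluconeogenesis enzymes and carriers 1 was higher and 1 lower, both at 24 h. In the glycogen, glycolysis and hormone lists 0 genes were called at any time by limma.

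Correlations between the 7 genes over the 28 arrays were mostly weak and are given as a description, since arrays of a group share treatment and array set. G6pc and Pck1 had r of -0.00, and 0.39 over the 23 arrays of the lower set. G6pc and Cebpa had r of -0.62, and -0.53 in the lower set. Pcx and Cebpb had r of 0.68 and 0.62, and Pck1 and Lpin1 0.49 and 0.34. G6pc and Lpin1 had r of -0.07 and 0.28.

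Of 5486 other genes tested, the 5 with the pattern most like G6pc over the 28 arrays were Cry1 (r = 0.77), Cln8 (0.72), Pomgnt1 (0.72), Cntn4 (0.71) and Pdlim4 (0.69). Over the lower set alone their r were 0.52, 0.69, 0.41, 0.42 and 0.26. The most opposed were Nr1d1 (-0.71), Eif4b (-0.66) and Ak3 (-0.66), with r of -0.61, -0.39 and -0.53 in the lower set. Cry1 encodes a repressor of the circadian clock and Nr1d1 a nuclear receptor that represses clock genes.

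Cry1 was 5.34 to 6.16 in WT untreated and 4.45 to 4.81 in Aag untreated arrays, a difference of -1.03 (SE 0.17, adjusted p = 0.00256; set-adjusted -0.87, adjusted p = 0.0170). Nr1d1 was 4.55 to 4.68 in WT untreated and 5.19 to 5.96 in Aag untreated arrays, a difference of 0.96 (SE 0.19, adjusted p = 0.00605; set-adjusted 0.77, adjusted p = 0.0566). Neither pair of groups overlapped. Both genes were chosen for their correlation with G6pc over these arrays, so these differences are not independent of it.

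**Figure D5:**
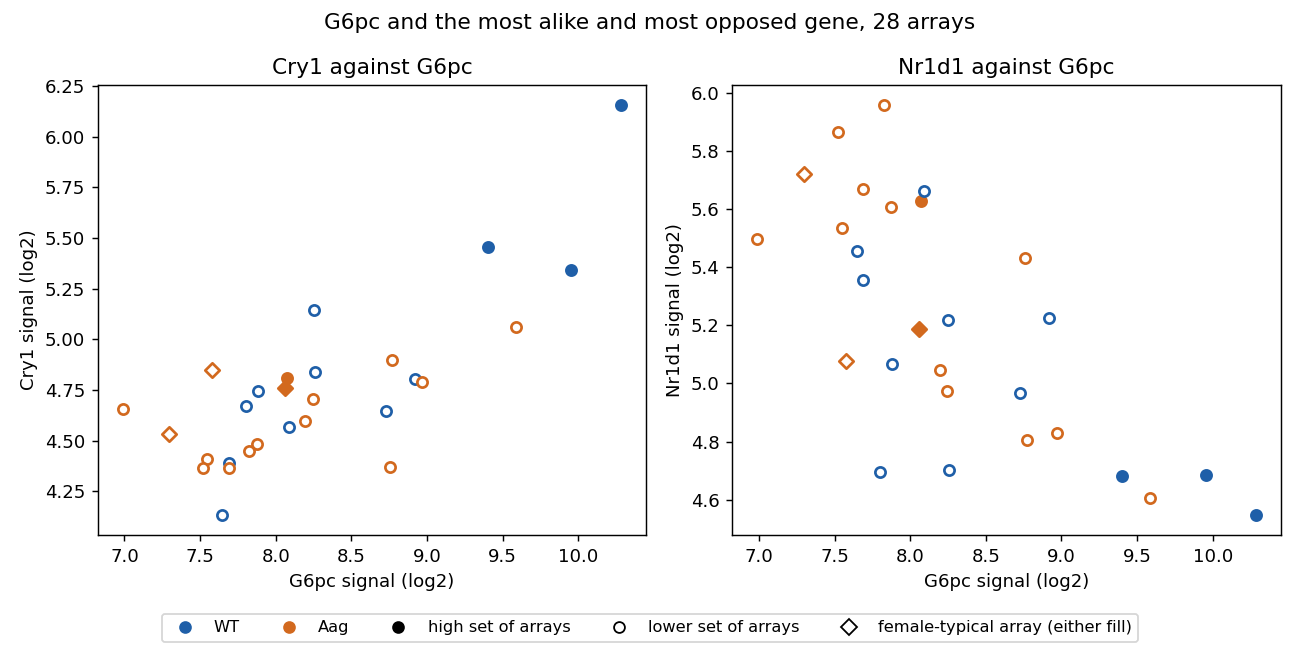
Signal (log2) of Cry1, the gene most like G6pc, and of Nr1d1, the most opposed, against G6pc in each of 28 arrays, with genotype by colour and array set by fill. The 3 WT untreated arrays, with G6pc from 9.40 to 10.28, and Aag 12 h replicate 2, at 9.59, stand at the right end, and r is 0.77 for Cry1 and -0.71 for Nr1d1.

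For Lpin1 the most alike genes were St3gal5 (r = 0.79), Nampt (0.79), Alas1 (0.79), Fkbp5 (0.77) and Abcf1 (0.77), with r of 0.82, 0.85, 0.76, 0.77 and 0.77 over the lower set. The most opposed were Hsd3b7 (-0.76), Asf1a (-0.73) and Pdgfra (-0.70). Fkbp5 is induced by glucocorticoids, Nampt makes a precursor of NAD, and Alas1 is the entry enzyme of heme synthesis. Nampt in WT was 1.80, 1.98 and 1.51 higher at 12, 24 and 48 h (adjusted p = 0.000868, 0.00152 and 0.0107). Set-adjusted, these were 3.21, 3.40 and 2.93, and 2.39 at 6 h (adjusted p = 0.00188), all called. In Aag it was called only after set adjustment, at 12 and 24 h (adjusted p = 0.00540 and 0.00861). It too was chosen for its correlation over these arrays. The lists of likeness for G6pc and Lpin1 shared no gene.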

How the data were processed

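Total RNA of mouse liver was measured on 28 Affymetrix MG-U74Av2 arrays as biotin-labelled cRNA, per the labels. The authors deposited 1 value per probe set and array, taken as log2 signal because values ran from 0.689 to 13.16. The upstream steps are not stated in any source used here. Depth has no meaning for arrays, and the number of arrays limits the precision.

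The 66 control probe sets were left out, and 12422 were quantile normalized, since array medians spanned 0.218. The brightest probe set was kept for each of 8251 genes with 1 symbol in the platform annotation (10855 probe sets had 1 symbol, 396 several, 1237 none). Genes had to exceed the median of an array in 2 or more arrays, which 5487 did, and were tested with limma 3.58.1 (R 4.3.3): 1 mean per group, 18 residual degrees of freedom, eBayes with trend, and Benjamini-Hochberg adjustment within each of 23 comparisons, two-sided, called under 0.05. Control probe sets of Pcx were placed on the normalized scale by interpolation in each array. Replicates were taken as unpaired.

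Named were the 7 genes, Igfbp1, Tat, Pdk4, Nr3c1, Mpg, Cyp2b9 and Hsd3b5 whatever their values, up to 4 called genes of each of 5 lists with the smallest adjusted p in a comparison, and the genes most like or opposed to G6pc and Lpin1. The genes and lists were chosen with earlier results of these data known. Promoters were RefSeq's (GRCm38.p6), searched for exact motifs on both strands. Python 3.11.15 served for the promoter search and, with matplotlib 3.10.9, for the plots. On simulated arrays for WT at 24 h over 5487 genes, limma called 80% of genes given a log2 change of 1. It called 98% of those given 2, and 0 genes without an effect. In the data, WT untreated liver lay in the high set alone, and 13.8% of genes were called at WT 24 h, but 3.50% set-adjusted. The simulated shares are therefore not error rates of the WT comparisons.

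Alternatives tried were no normalization, median centring, all genes whatever their brightness, probe sets averaged per gene or each kept as a row, replicate number as a block, array weights, only the groups compared, each array left out, the array set as a term, the lower set only, no female-typical arrays, and terms for array set and female-typical pattern together. The high set only, with or without its female-typical array, was added after seeing the data.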

Additional observations from a re-analysis of the deposited data

Results flagged for a closer look

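The response of G6pc to MMS at 12 h differed between the genotypes by the test of the difference itself. By limma, the Aag response exceeded the WT response by 2.84 in log2 units, with SE 0.56 and adjusted p = 0.0351. In WT all 3 arrays at 12 h lay below all 3 untreated arrays, and in Aag both arrays at 12 h lay above all 4 untreated arrays. Over the alternatives other than leaving out single arrays, the adjusted p ran from 0.0101 with only the groups compared to 0.0892 with array weights, and it reached 0.545 without Aag 12 h replicate 2. In the same limma fit, G6pc in Aag against WT was -1.92 in untreated liver (adjusted p = 0.00378). At 12 h it was 0.92 (adjusted p = 0.999, not called). The interaction combines both, so the larger part of it lies in the untreated arrays. The cause was not tested.

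Dixon's criterion was applied to 8 probe sets in each of the 2 groups of 4 arrays, and 0 of 16 tests flagged an array standing apart. Smaller groups were not examined. The criterion looks for a single extreme array, so it cannot flag a split of 2 arrays against 2, as Cebpb showed in Aag untreated liver.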

How the results depend on the processing

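For the 7 genes, no difference that was called in either of the fits compared changed direction. Among the called genes of the lists that were followed, Hnf4a in WT turned after adjustment for array set at 12, 24 and 48 h (1.00, 0.85 and 1.16 against -0.23, -0.38 and -0.08), Phkg2 at 12 and 24 h (0.47 and 0.49 against -0.08 and -0.06) and Gadd45b at 12 h (0.68 against -0.06). Of the 7 genes, the number called in WT at 6, 12, 24 and 48 h (2, 3, 3 and 2) became 0, 2, 1 and 0 after adjustment for array set, 0, 1, 1 and 0 when the female-typical pattern was added to that fit, and 0, 0, 2 and 1 with array weights, a fit that stopped before it converged. It became 1 at 12 h under median centring and 0 at 6 h with only the groups compared. Cebpb made the number 1 in Aag at 12 and 24 h and at 48 against 6 h, from 0, after adjustment for array set or in the lower set only. With both terms the number was 1 at 12 h and at 48 against 6 h, and with array weights 2 in Aag at 48 h and 1 at 48 against 6 h. For Aag against WT untreated the number, 1, became 2 without female-typical arrays, and 0 with array weights, with both terms, and in the high set without its female-typical array. For the interaction at 12 h it became 0, from 1, under median centring, array weights, both terms or without female-typical arrays, and at 48 h it became 1, from 0, without the brightness filter. Leaving out single arrays, the number ran from 1 to 2, 1 to 4, 0 to 3 and 2 to 3 in WT, 0 to 1 and 0 to 2 in Aag at 6 and 48 h, 1 to 2 for Aag against WT untreated and 0 to 1 for the interaction at 12 h. The cause was not tested.

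With the replicate number as a block, the numbers in WT were 2, 3, 2 and 2, the G6pc interaction at 12 h was 3.05 (adjusted p = 0.0207), and the only call that changed was Cebpa in WT at 24 h (adjusted p = 0.0605). Same-numbered arrays of different groups had correlations of their deviations from -0.74 to 0.92, with 36 of 106 above 0.1. For arrays of other numbers they ran from -0.92 to 0.76, with 90 of 244 above 0.1. The numbers thus gave no sign of pairing, which does not exclude it.

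The number of arrays, 2 to 4 a group, limits all values. WT untreated liver has arrays of the high set only, so MMS and array set in WT rest on a term estimated from 4 Aag arrays.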
